A study of Homo sapiens with 16 samples.

Results

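The MBNL1 locus is described here as 15 adjacent bins of 20 kb on chromosome 3, chr3:151900001-152200000 in build hg19, over the gene MBNL1 and the stretch upstream of it. The locus was chosen because its first 100 kb, chr3:151900001-152000000, had one of the largest shares of Hi-C contacts at 0.25 h of digestion relative to 12 h. Those 5 bins are called the chosen 100 kb, and the other 10 bins the rest of the locus. All 15 bins were listed in every library, among 137198 bins of chromosomes 1 to 22 and X. Contacts were followed within a window of 115 bins, chr3:150900001-153200000, which added an upstream and a downstream flank of 50 bins each. In Hi-C, DNA ends that lie close together in fixed nuclei are joined, and each joined pair that is sequenced counts as 1 contact. It was performed in nuclei of K562, an established human leukaemia line, fixed with 2% formaldehyde and cut with the restriction enzyme HindIII for 0.25, 1, 3 or 12 h, with 2 replicates per time. The labels name no other treatment and no genetic change, and they do not say whether replicates came from separate cultures, so p-values measure only the spread between these libraries. Hi-C holds no expression values, so the K562 label could not be set against marker genes. The series states that digestion was varied so that the most accessible domain boundaries would be captured at the shortest times.

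MBNL1 encodes muscleblind-like splicing regulator 1, a zinc-finger protein that binds RNA and steers the choice of alternative exons towards adult patterns. It is best known from myotonic dystrophy, in which expanded CUG repeats in RNA trap it in nuclear foci. Its paralogs MBNL2 and MBNL3 bind similar RNA motifs, and the CELF family, CELF1 and CELF2 among them, often acts on the same exons in the opposite direction. In the RefSeq annotation of assembly GRCh38.p14, the coding genes that precede MBNL1 on the chromosome are P2RY12, IGSF10, AADACL2, AADAC and SUCNR1. P2RY12 encodes the platelet receptor for ADP, AADAC a deacetylase and SUCNR1 the receptor for succinate. The coding genes that follow are P2RY1, another receptor for ADP, then RAP2B, ARHGEF26, DHX36 and GPR149. The long non-coding RNA gene MBNL1-AS1 and the pseudogene TMEM14EP lie within the span of MBNL1. That assembly differs from the build of the files, so none of these genes was placed in a bin, and no value is given for MBNL2, MBNL3, CELF1 or CELF2.

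HindIII cuts at AAGCTT, and a contact can be seen only where DNA was cut, so the sequence before the gene's starts is shown with respect to that site. RefSeq lists 3 promoter entries for MBNL1. The 250 bases before 2 of them, on the plus strand of GRCh38.p14, follow. The third entry overlaps the first and is not shown.
MBNL1 start 1, chr3:152268679-152268928: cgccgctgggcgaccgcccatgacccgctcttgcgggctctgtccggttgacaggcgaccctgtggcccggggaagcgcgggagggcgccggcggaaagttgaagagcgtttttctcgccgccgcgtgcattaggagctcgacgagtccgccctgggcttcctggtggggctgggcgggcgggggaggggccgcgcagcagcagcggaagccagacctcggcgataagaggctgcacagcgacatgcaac
MBNL1 start 2, chr3:152298764-152299013: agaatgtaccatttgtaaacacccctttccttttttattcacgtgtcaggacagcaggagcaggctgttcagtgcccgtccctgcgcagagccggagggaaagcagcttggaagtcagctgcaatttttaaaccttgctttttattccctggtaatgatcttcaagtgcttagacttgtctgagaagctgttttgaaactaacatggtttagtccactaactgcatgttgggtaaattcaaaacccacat
AAGCTT, which reads the same on both strands, was searched for in windows of 250 bases before and 50 after each start. None of the 3 MBNL1 windows held it, and 5.84% of all 35116 promoter windows of 300 bases did, so no base is in capitals. The 3 windows had 67.7%, 44.3% and 57.0% G and C, beside a median of 58.7% over all windows. This is a description of these letters in these windows, and HindIII sites elsewhere in the locus were not analysed here.

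Between 62777251 and 176412222 contacts per library were recovered from the second sequencing run, on which these results rest. At 0.25 h replicate 2 had the fewest contacts and the largest share of contacts that stayed inside 1 bin of 20 kb, 24.2%, against 20.4% in replicate 1 and 11.7% and 11.5% at 12 h. Most results that involve 0.25 h are therefore also given within each replicate number. Contacts that stayed inside a bin were left out of coverage, which is the number of contacts that link a bin to any other bin, in contacts per 1000000 such contacts in the library (CPM). The bins of the locus held 861 to 6983 such contacts each in a library. Their mean levels lay between the 70.8 and the 99.7 percentile of all bins.

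The chosen 100 kb had high coverage at every time and had less of it at 12 h than at the 3 shorter times. The mean coverage of its 5 bins was 39.1 and 46.0 CPM per bin in the 2 libraries of 0.25 h, 37.9 and 38.4 after 1 h, 38.5 and 38.0 after 3 h, and 28.0 and 27.7 after 12 h. The mean over all bins was 14.6 CPM in each library, a level set by the scaling to CPM. Thus the 1 h and 3 h libraries overlapped, and both 12 h libraries lay far below all others. The level at 0.25 h was 1.52-fold that at 12 h, a difference of 0.61 on the log2 scale (0.48 between the libraries of replicate 1 and 0.73 between those of replicate 2, SD 0.18, n = 2). By step, the log2 difference was 0.15 from 0.25 h to 1 h, -0.00 from 1 h to 3 h and 0.46 from 3 h to 12 h, each as the earlier minus the later time. The first step rested on 0.25 h replicate 2, since it was 0.034 without that library and 0.27 without replicate 1. In 100 kb bins, with both replicates, it was 0.10 in the second run and 0.0080 in the first. Most of the difference therefore lay between 3 h and 12 h. Because 0.25 h against 12 h chose the locus, these values only describe it, and no p is given for that contrast.

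The 5 bins of the chosen 100 kb had a like pattern. The first bin, from 151.90 Mb, had the highest level, with 58.0 and 66.3 CPM after 0.25 h, 56.2 and 55.4 after 1 h, 56.8 and 57.0 after 3 h, and 42.6 and 41.8 after 12 h. The bin from 151.92 Mb had 41.4 and 50.8, then 40.4 and 41.4, then 40.7 and 39.9, and last 28.7 and 28.0. In the bin from 151.94 Mb the values were 26.3 and 31.6, 25.8 and 25.9, 25.2 and 25.1, and 17.6 and 17.7 at the same times. This bin had the lowest coverage of the 5 and the largest log2 difference between 0.25 h and 12 h, 0.69 in the fit. The bin from 151.96 Mb had 39.9 and 47.1 CPM after 0.25 h, 39.1 and 40.0 after 1 h, 39.9 and 39.6 after 3 h, and 29.7 and 30.3 after 12 h. The bin from 151.98 Mb had 29.7 and 34.2, 27.9 and 29.6, 29.7 and 28.6, and 21.3 and 20.9. In all 5 bins 0.25 h replicate 2 was the highest library and the 12 h libraries were the lowest. Their differences between 0.25 h and 12 h lay at the 99.85 to 99.98 percentile of all bins.

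**Figure D1:**
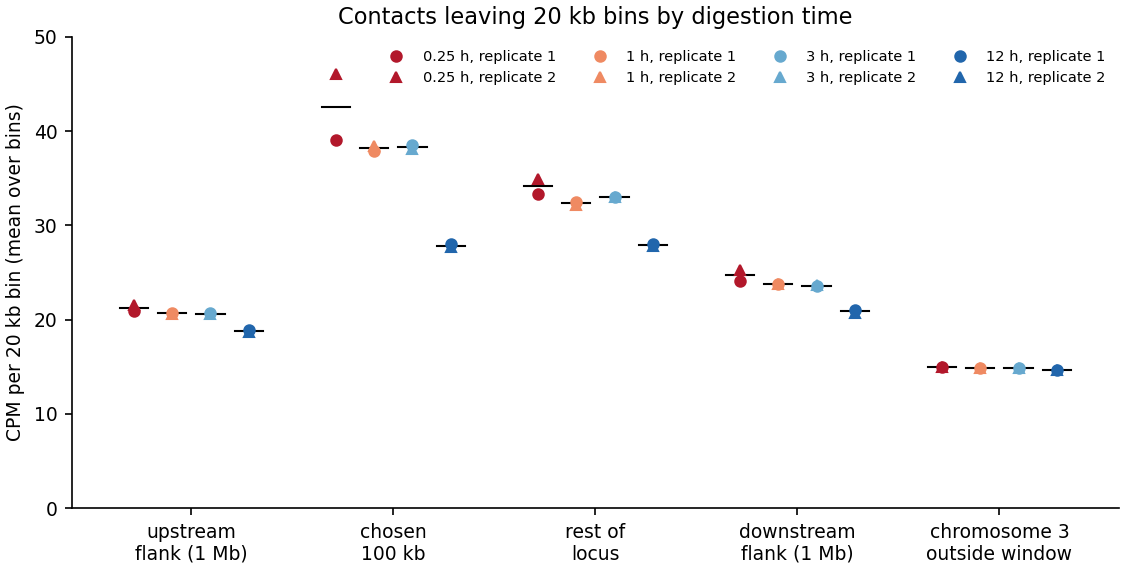
Mean CPM per 20 kb bin (y axis) in the upstream flank, the chosen 100 kb, the rest of the locus, the downstream flank and the remainder of chromosome 3, by digestion time (colour). Each point is 1 library, circles are replicate 1, triangles replicate 2, and bars are means of the 2 libraries. The chosen 100 kb falls from 42.5 at 0.25 h to 27.9 at 12 h, while chromosome 3 outside the window goes from 14.9 to 14.7.

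The rest of the locus differed less between the first and the last time. It had 33.4 and 34.9 CPM per bin after 0.25 h, 32.5 and 32.2 after 1 h, 33.0 and 33.0 after 3 h, and 28.0 and 27.8 after 12 h, a log2 difference of 0.29 (0.25 within replicate 1 and 0.33 within replicate 2). At 12 h the 2 parts of the locus thus had nearly the same level, which they did not at the shorter times. Among the 10 bins of the rest, the fitted log2 difference was largest in the bin from 152.00 Mb, 0.40, which adjoins the chosen 100 kb, and smallest in the bin from 152.04 Mb, 0.20. The fall was not steady, since the bins from 152.12 Mb and 152.16 Mb, near the far end, had 0.34 and 0.37. The bin with the highest level was the one from 152.02 Mb, with 53.5 and 58.6 CPM at 0.25 h and 44.8 and 45.4 at 12 h. The bin with the lowest level was the last, from 152.18 Mb, with 19.5 and 18.1 at 0.25 h and 16.3 and 15.8 at 12 h. All 15 bins of the locus had both 0.25 h libraries above both 12 h libraries, as did 30.0% of all bins, and the rule used that contrast. In the flanks this held for 39 of 50 bins upstream and 42 of 50 downstream.

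The log2 difference between 0.25 h and 12 h was 0.18 in the upstream flank (0.14 and 0.21 within replicates 1 and 2). It was 0.24 in the downstream flank (0.20 and 0.29) and 0.03 on chromosome 3 outside the window. The mean over all bins is fixed by the scaling to CPM and so gives no baseline. The median over all bins was -0.04, and 46.8% of all bins had both 0.25 h libraries below both 12 h libraries. In bins of 100 kb, the chosen interval had a log2 difference of 0.47 (0.37 and 0.58 within replicates 1 and 2) and stood 4th from the highest. The 100 kb just before it had 0.31 and stood 103rd, and the 100 kb just after it had 0.30 and stood 167th. Farther off, the 100 kb from 152.6 Mb had 0.32 and stood 94th, so values did not simply decline with distance. Single bins of 20 kb in the flanks were as high as members. The bin from 152.58 Mb, with 0.59, was above 13 of the 15 members, and 3 of the 100 flank bins were above the lowest of the chosen 5.

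**Figure D2:**
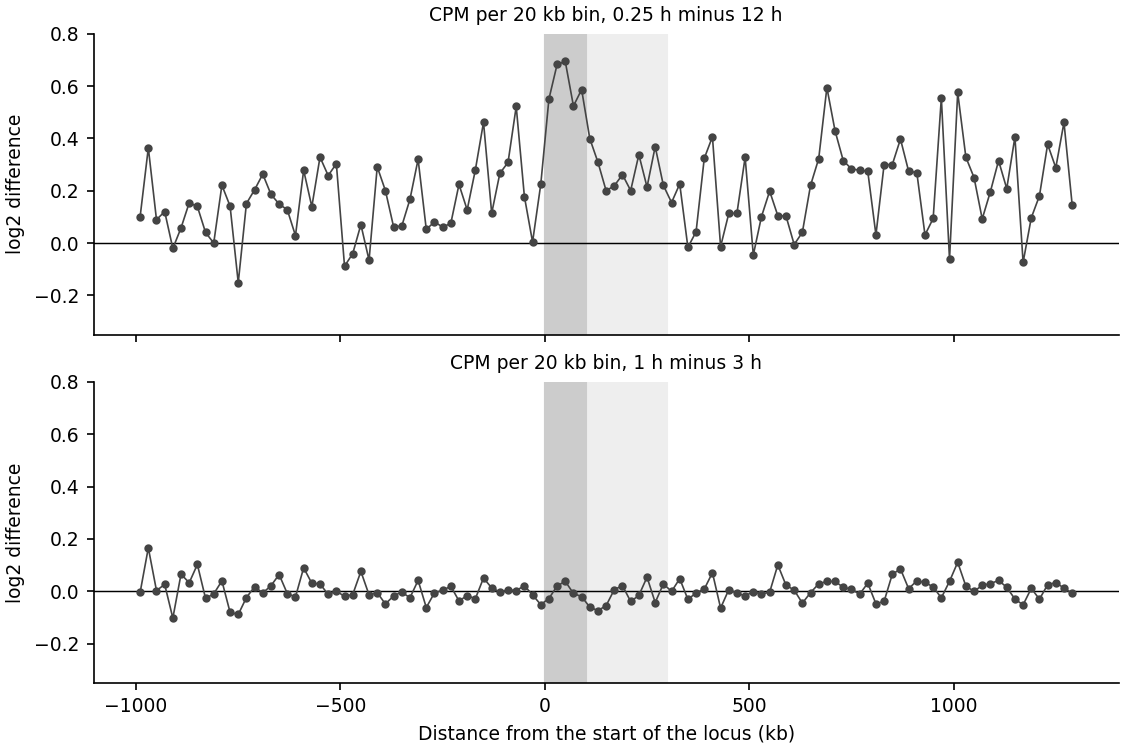
Log2 difference in CPM (y axis) of each 20 kb bin of the window against distance from the start of the locus in kb (x axis), for 0.25 h minus 12 h (upper) and 1 h minus 3 h (lower). Dark shading is the chosen 100 kb and light shading the rest of the locus. The upper panel peaks in the dark band at 0.69, and in the lower panel the bins of the locus lie between -0.07 and 0.05.

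The contrast of 1 h with 3 h did not choose the locus, though the fit took its estimate of the spread from all 8 libraries. No bin of the locus passed the test between these times. Over the 15 bins, the fitted log2 difference of 1 h minus 3 h ran from -0.07 to 0.05 with a median of -0.02, and standard errors of 0.036 to 0.055 (2 libraries per time). Over all bins the median was -0.00. With limma and p adjusted over all bins, 0 of 15 bins passed 0.05, with a lowest adjusted p of 0.845, and the percentage of all bins that passed was 0. At an unadjusted p under 0.05, 0 of 15 bins passed, beside 5.85% of all bins. Leaving out either 1 of the 0.25 h libraries cannot move these differences, since those libraries enter only the estimate of the spread. With a replicate block, which also changes only that estimate, 1 of 15 bins had an unadjusted limma p under 0.05. Of all 137198 bins 12334 did so, and the lowest adjusted limma p of the 15 was then 0.534. In 9 of the 15 bins the 2 libraries of 1 h did not overlap those of 3 h, 3 with 1 h above and 6 with 1 h below, beside 38.1% of all bins in either direction. The bin from 152.02 Mb had the largest difference, with 52.6 and 52.5 CPM at 1 h and 54.9 and 55.8 at 3 h, an estimate of -0.07 with a standard error of 0.039 and a limma p of 0.845 after adjustment. A single exact permutation test of 2 libraries against 2 could not have gone below p = 0.333.

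The partners of the chosen 100 kb differed in how far they changed with digestion. Contacts between its own bins came to 26.5 and 33.8 CPM after 0.25 h, 24.9 and 24.4 after 1 h, 25.4 and 23.5 after 3 h, and 13.7 and 13.9 after 12 h, a 2.17-fold difference between the first and the last time. Contacts with the rest of the locus were 1.61-fold as many at 0.25 h as at 12 h, with 32.3 and 35.6 CPM at 0.25 h and 21.7 and 20.3 at 12 h. The ratio was 1.46 for the upstream flank (1.37 and 1.56 within replicates 1 and 2), 1.33 for the downstream flank (1.25 and 1.41) and 1.30 for the rest of chromosome 3 (1.21 and 1.41). Contacts with other chromosomes had the smallest ratio, 1.12, with 21.1 and 23.95 CPM at 0.25 h and 20.4 and 19.8 at 12 h. The order thus ran from the nearest to the farthest partners, and in each class both 0.25 h libraries lay above both 12 h libraries. The libraries of 1 h and those of 3 h overlapped in all 6 classes. Over all bins, other chromosomes took a mean of 12.6% of the contacts that left a bin at 0.25 h and 13.5% at 12 h, a ratio of 0.93. In the chosen 100 kb this share was 12.5% and 12.2% at 0.25 h and 16.2% and 15.8% at 12 h. The ratio of its means was 0.77. A smaller share for other chromosomes at 0.25 h was therefore not particular to the chosen 100 kb, but the difference was larger there than over all bins. The nearer classes were not measured over all bins, so how much of the order is shared by other loci was not tested.

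**Figure D3:**
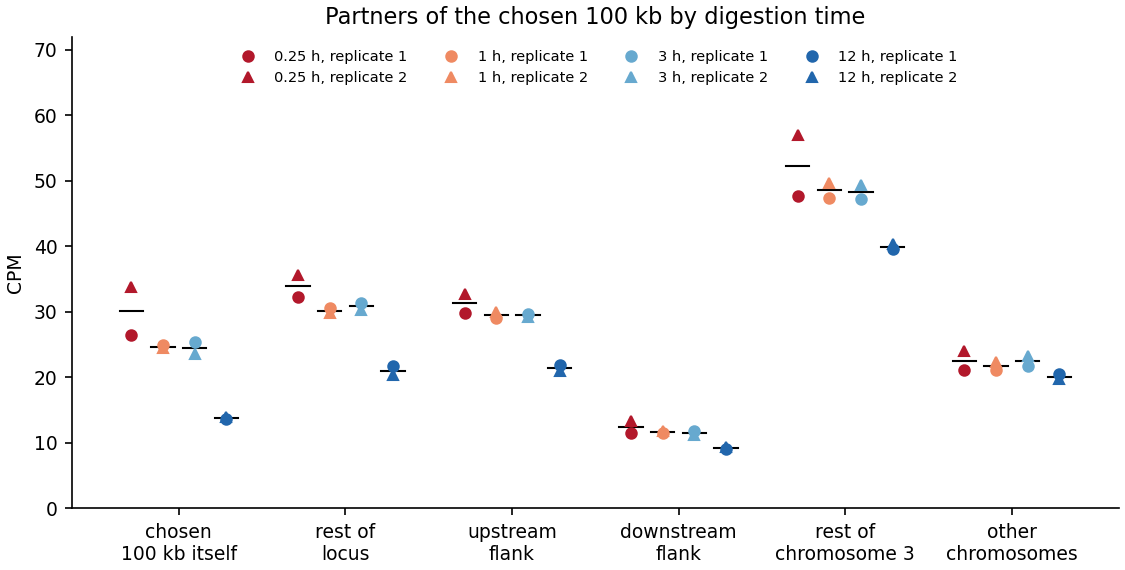
CPM (y axis) of the chosen 100 kb with 6 classes of partner (x axis) by digestion time (colour). Each point is 1 library, circles are replicate 1, triangles replicate 2, and bars are means of the 2 libraries. Contacts of the interval with itself drop from 30.1 to 13.8 between 0.25 h and 12 h, and those with other chromosomes from 22.5 to 20.1.

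Contacts that stayed inside a bin of 20 kb, which coverage leaves out, took 17.3% and 20.6% of all contacts of the locus at 0.25 h and 8.96% and 8.72% at 12 h, with means of 15.8% at 1 h and 15.03% at 3 h. Taken bin by bin over the 8 libraries, the share in the members lay between the 12.7 and the 95.9 percentile of all bins, with a median at the 72.8 percentile, so the members spread over most of the range of the series. At 0.25 h it ran from a mean of 1.26% in the last bin, from 152.18 Mb, to 23.1% in the bin from 152.06 Mb. In 13 of 15 bins both 0.25 h libraries lay above both 12 h libraries, beside 78.0% of all bins, and the rule used that contrast. The bins from 152.04 Mb and 152.18 Mb overlapped, the former with 2.66% and 1.33% at 0.25 h and 2.03% and 1.75% at 12 h. The bin from 151.98 Mb had the largest ratio, 3.36, with 12.1% and 17.8% at 0.25 h and 4.63% and 4.13% at 12 h. Contacts with other chromosomes took 11.6% and 10.97% of the contacts of the locus at 0.25 h and 15.6% and 15.6% at 12 h.

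The deposited signal is balanced, which means that each bin was scaled to the same total, so differences in coverage are removed from it. Contacts were compared in this signal as observed over expected, where expected is the mean signal at the same distance over all chromosomes in the same library. The bins of the chosen 100 kb had an observed over expected of 1.16 and 1.28 among themselves after 0.25 h, 1.10 and 1.10 after 1 h, 1.11 and 1.06 after 3 h, and 1.00 and 1.06 after 12 h. With the rest of the locus they had 1.04 and 0.99 at 0.25 h and 0.98 and 0.94 at 12 h. In recovered contacts that were not balanced, the same 2 measures were far higher and differed more, with 4.14 and 5.46 among the 5 bins at 0.25 h and 2.36 and 2.47 at 12 h. Balancing thus took away most of the difference between times, from 0.98 to 0.24 on the log2 scale for the chosen 100 kb with itself.

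The locus had more contacts with its upstream than with its downstream side. Over the whole locus, the observed over expected with the 500 kb just upstream ran from 0.945 to 1.06 over the 8 libraries, and with the 500 kb just downstream from 0.519 to 0.553. The 2 ranges did not overlap at any digestion time. In recovered contacts without balancing both were higher, 1.67 to 2.49 upstream and 1.024 to 1.36 downstream, and at each time the upstream side was again the higher. With balancing, the rest of the locus had 1.11 to 1.25 with the nearer upstream side, and the chosen 100 kb had 0.761 to 0.849. With the nearer downstream side the chosen 100 kb had 0.437 to 0.461, the lowest of the parts compared in the balanced signal. Without balancing, its mean was above that of the rest of the locus at 0.25 h (1.36 against 1.30), 1 h and 3 h. At 0.25 h this rested on replicate 2, with 1.46 against 1.33, since replicate 1 had 1.262 against 1.258. At 3 h replicate 2 went the other way, with 1.218 against 1.234. At 12 h the mean of the chosen 100 kb was below, 0.972 against 1.05. Contacts that pass over the locus, between the 500 kb on either side, had 1.03 to 1.12 with balancing and 1.52 to 1.76 without it.

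**Figure D4:**
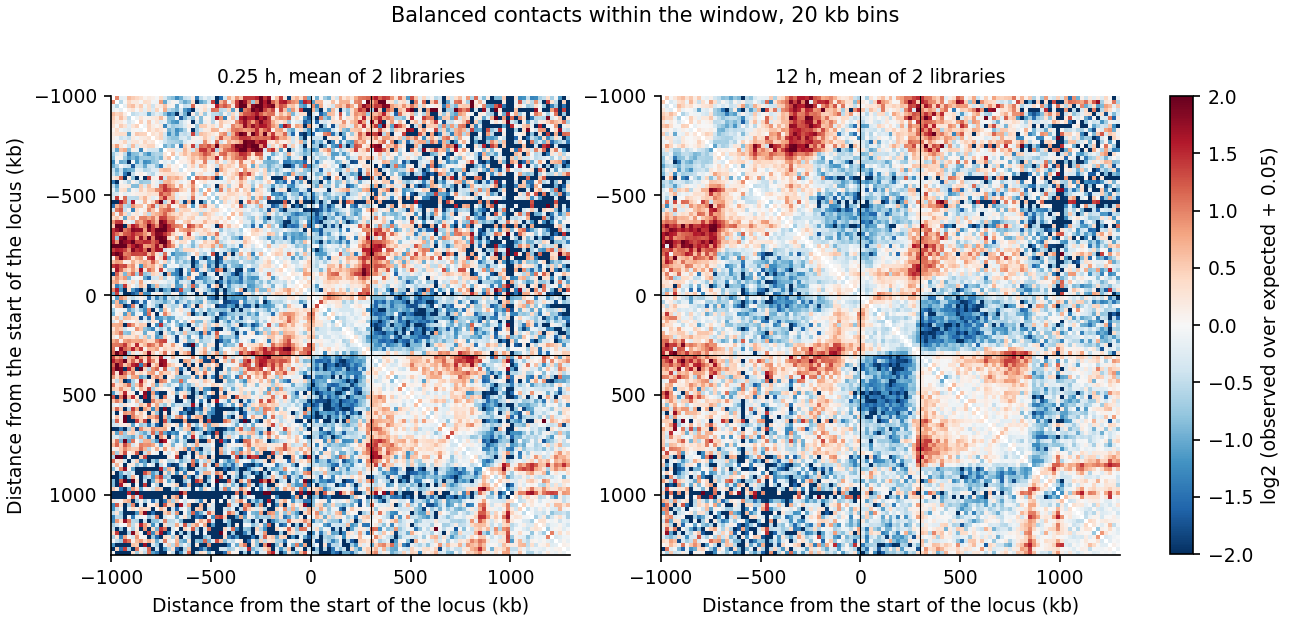
Balanced contacts among the 20 kb bins of the window at 0.25 h (left) and 12 h (right), as log2 of the mean observed over expected of 2 libraries plus 0.05 (colour), with distance from the start of the locus in kb on both axes. Thin black lines mark the ends of the locus. At both times a blue block joins the locus to the 500 kb after it, where the observed over expected was 0.519 to 0.553, and a red patch joins the end of the locus to bins before its start, 1 pair of which reached 3.5003 in the sum of the libraries.

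There were 577 pairs of a member bin and a bin of the window at least 100 kb apart with at least 50 contacts in all. Their median observed over expected in the sum of the libraries was 0.834. The 5 highest pairs all had 1 end in the last 2 bins of the locus, from 152.16 Mb and from 152.18 Mb. The highest joined the bin from 151.78 Mb, upstream of the locus, to the bin from 152.16 Mb, with 3.5003 and 339 contacts, at the 99.05 percentile of all pairs at that distance with at least 50 contacts. Its values were 4.93 and 5.56 after 0.25 h, 3.62 and 3.86 after 1 h, 2.89 and 3.65 after 3 h, and 2.65 and 3.02 after 12 h. The 2 libraries of 0.25 h were the highest, and those of 1 h and 3 h overlapped. The next pairs joined the bin from 152.18 Mb to the bins from 151.64 Mb, with 2.88, and from 151.78 Mb, with 2.87. The remaining 2 were the bins from 150.94 Mb and 152.16 Mb, with 2.82, and from 151.74 Mb and 152.18 Mb, with 2.69. The pair from 150.94 Mb stood only at the 82.3 percentile of such pairs at its distance, and the other 3 at the 96.9 to 98.0 percentile. These 4 rest on 59 to 135 contacts over the 8 libraries, and single libraries went down to 0 contacts. None of the 20 highest pairs lay within the locus. How many of the 577 pairs did so was not counted, so nothing is read into this.

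For 1 h against 3 h, 63 pairs of 100 kb bins with a member bin were tested among 526822 pairs. Their log2 differences ran from -0.35 to 0.71 with a median of -0.00, and standard errors of 0.12 to 0.39. With limma and adjustment over all pairs, 0 of 63 passed 0.05, and the percentage of all pairs that passed was 0. At an unadjusted p under 0.05, 1 of 63 passed, beside 5.48% of all pairs. It joined the 100 kb from 152.1 Mb to those from 152.8 Mb, with a log2 difference of 0.71, a standard error of 0.23 and a limma p of 0.907 after adjustment.

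The insulation score measures how many balanced contacts cross a bin, as the log2 of the mean signal between the 200 kb before and the 200 kb after the bin, over the chromosome mean, and a low score marks a boundary between contact domains. The lowest score of the window lay in the last bin of the locus, from 152.18 Mb. It was -1.35 and -1.25 after 0.25 h, -1.32 and -1.36 after 1 h, -1.34 and -1.31 after 3 h, and -1.41 and -1.41 after 12 h. The libraries of 0.25 h, 1 h and 3 h overlapped, and those of 12 h were the lowest. A local minimum was found at this bin or an adjacent one in 8 of 8 libraries, and 0.242% of all bins had a lower mean score. The chosen 100 kb lay on the opposite side of the scale, with a highest score in the sum of 0.40 in the bin from 151.94 Mb. The depth of the minimum depended on balancing. In recovered contacts without balancing the mean score of this bin over the 8 libraries was -0.13, against -1.34 with balancing, and the lowest bin of the locus was the one from 152.16 Mb with -0.28, below which 38.6% of all bins lay. The lowest bin of the window then lay outside the locus, from 151.62 Mb, with -0.44. With balancing and a square of 500 kb, the bin from 152.18 Mb had -0.64 and was the lowest of the window, with 5.02% of all bins lower. With a square of 100 kb the lowest was the adjacent bin from 152.16 Mb, with -1.31.

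Of 4 other minima in the window, those from 151.14 Mb (-0.54 in the sum), 151.64 Mb (-0.70) and 152.74 Mb (-0.67) were found in 8 of 8 libraries. The one from 153.14 Mb (-0.05) was found in 1 of 8. The bin from 151.64 Mb was also an end of the second highest pair of the locus. For 1 h against 3 h the scores of the 15 member bins differed by -0.04 to 0.06, with standard errors of 0.045 to 0.089. With limma and adjustment over all bins 0 of 15 passed 0.05, with a lowest adjusted p of 0.997, and the percentage of all bins that passed was 0. At an unadjusted p under 0.05, 0 of 15 passed, beside 4.80% of all bins.

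**Figure D5:**
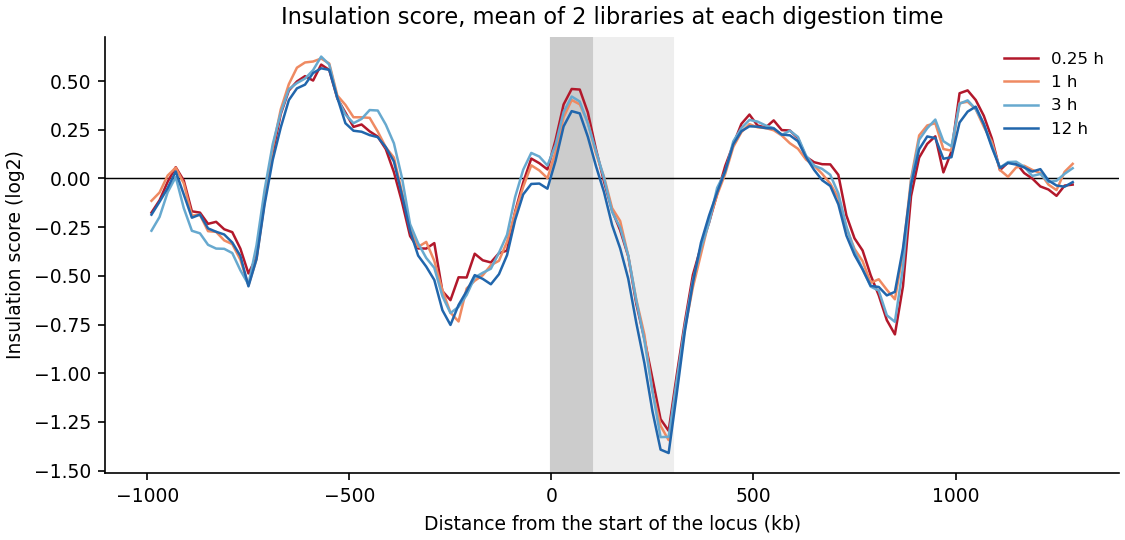
Insulation score (y axis, log2) of the 20 kb bins of the window against distance from the start of the locus in kb (x axis), as the mean of 2 libraries at each digestion time (colour). Dark shading is the chosen 100 kb and light shading the rest of the locus. The curves run close together, with a peak in the dark band and the lowest point, -1.41 at 12 h and -1.30 at 0.25 h, in the last bin of the locus.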

How the data were processed

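Hi-C came as 2 sets of 8 files, 16 in all. Titles of the second set repeat the times and replicate numbers and add seq2. The sets were therefore taken as 2 sequencing runs of the same 8 libraries, which the titles do not state outright. Each file lists pairs of bins, of 50 kb in the first run and 20 kb in the second, with a signal that the authors balanced before they deposited it. The submitters' processing notes list HiC-Pro 2.11.1, Bowtie2 2.3.4.1 and hg19, with no roles. The number of bins equals that of hg19 chromosomes 1 to 22, X, Y and M, which gave the coordinates. The signal was turned back into whole contacts, all within 0.01 of a whole number. On simulated data the recovery and the fit were checked. PCR copies are not independent molecules, so counting precision would be overstated if any remained, and their share was not measured.

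Libraries were grouped by the titles in the labels. Main results use the second run. Limma 3.58.1 in R 4.3.3 (lmFit, eBayes with trend, Benjamini-Hochberg adjustment over all features) was fitted to the 8 libraries, with 1 h minus 3 h as the tested contrast. Coverage was log2 (CPM + 0.5). Pairs of 100 kb bins up to 2.3 Mb apart with a mean of at least 10 contacts were used as log2 (observed over expected + 0.05). Minima needed a prominence of 0.2.

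Described were the chosen 5 bins singly, the others by range, the 5 highest pairs, all minima, and the 3 bins of 100 kb most like the chosen one. The locus and these rules were chosen with earlier results of these data known. Replicate differences correlated between times at 0.112 to 0.259, all over 0.1, so replicate numbers were taken to pair libraries and a replicate block was tried. Other alternatives left out libraries or changed scaling, filter, bin size, run or square. No hg19 annotation or genome was used here.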

Additional observations from a re-analysis of the deposited data

How the results depend on the processing

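For 1 h against 3 h, 0 members were called in coverage under 17 alternatives, in pairs under 13 and in insulation under 12. These included the replicate block and leaving out each library in turn. Where 2 libraries per time were kept, 0 of all features were called as well, so these counts do not set the locus apart. The lowest adjusted p from limma over these settings was 0.383 for coverage, 0.635 for pairs and 0.891 for insulation. The log2 difference of the chosen 100 kb between 0.25 h and 12 h, which had no test, was 0.61. The replicate block (the mean of the differences within replicate numbers) must give the same 0.61, so it is no separate check. Without 1 library the difference was 0.49 to 0.72, with the lowest value without 0.25 h replicate 2. It moved to 0.27 in contacts between chromosomes alone and to 0.40 in the first run in 100 kb bins. It was 0.57 with contacts inside a 20 kb bin, 0.65 in cis contacts, 0.65 with median-of-ratios size factors and 0.47 in the second run in 100 kb bins. Without balancing, 5 log2 differences between 0.25 h and 12 h in observed over expected of the 2 parts of the locus turned from below to above 0. For the rest of the locus they went from -0.04 to 0.17 with the farther 500 kb upstream and from -0.02 to 0.35 with the farther 500 kb downstream. For the chosen 100 kb they went from -0.11 to 0.51 with the farther 500 kb downstream, from -0.01 to 0.48 with the nearer 500 kb downstream and from -0.01 to 0.47 with the farther 500 kb upstream. For the whole locus they went from -0.03 to 0.27 with the farther 500 kb upstream and from -0.05 to 0.40 with the farther 500 kb downstream. Contacts that pass over the locus, between the nearer 500 kb on either side, went from -0.08 to 0.18. With balancing, both replicates were below 0 for these and for the rest and the whole of the locus with the farther 500 kb upstream. In the others the 2 replicates had opposite signs. The chosen 100 kb with the farther 500 kb downstream had 0.758 and 0.666 at 0.25 h, against 0.729 and 0.812 at 12 h. Most of these changes of sign therefore start from differences not told from 0. The cause of the changes was not tested. Depth limits single pairs of 20 kb bins, several of which had under 10 contacts in a library. With 2 libraries per time, small differences between 1 h and 3 h could not be told from the spread.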

Other observations

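Contacts of the locus with other chromosomes were in largest excess with chromosome 18. The share that went to chromosome 18, over that chromosome's share of all contacts between chromosomes, was 2.20 to 2.52 over the 8 libraries. The next chromosome, 11, had a mean of 1.07. The flanks had similar values, 2.22 to 2.38 upstream and 1.98 to 2.31 downstream, and the whole of chromosome 3 had 1.14 to 1.17. Of 1947 bins of 100 kb on chromosome 3, 186 were above 2, all between 138.3 and 162.9 Mb, and the highest, 6.33, was the one from 138.3 Mb. The excess was thus not particular to the locus, and its cause was not tested. The 5 bins of 1 Mb on other chromosomes with the largest excess of contacts with the locus were all on chromosome 18, led by chr18:7000001-8000000 with 258 contacts where 33.9 were expected. By digestion time, the mean ratio of the locus was 2.36 after 0.25 h, 2.26 after 1 h, 2.32 after 3 h and 2.45 after 12 h (SD 0.024, 0.094, 0.11 and 0.094, n = 2 each).

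The 100 kb bins whose coverage over the 8 libraries was most like that of the chosen 100 kb were chr3:172500001-172600000, chr4:113600001-113700000 and chr4:88300001-88400000. Their Pearson r in log2 CPM was 0.999, 0.998 and 0.998. This measure ignores size, and their log2 differences between 0.25 h and 12 h were 0.22, 0.17 and 0.24, against 0.47 in the chosen 100 kb. Their mean levels at 0.25 h were 112, 60.6 and 81.1 CPM, against 184 CPM. The libraries share 4 digestion times and so are not independent, and 2091 of 27722 bins compared had an r above 0.95.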
